A study of Mus musculus with 6 samples.

Results

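The adaptor, kinase and effector genes of innate sensing were followed in mouse bone marrow derived macrophages (BMDMs), cultured cells that differentiate from marrow progenitors. The genes were Myd88, Ticam1, Mavs, Irak4, Irak1, Irak3, Traf6, Tbk1, Ikbke and Trex1. They were chosen by symbol, with earlier results of these data known, and they make 10 of the 16519 genes in the deposited count table. All 10 passed the filter on low counts, which left 12605 genes to test. The name adaptors and kinases does not cover every one of them, since Traf6 encodes a ubiquitin ligase, Trex1 a DNA exonuclease and Irak3 a kinase-like protein with little or no catalytic activity. The mice of the 3 KO libraries carried floxed Trmt61a together with LysM-Cre. Those of the 3 WT libraries carried the same floxed Trmt61a but lacked Cre. Trmt61a codes for the catalytic subunit of the methyltransferase that places N1-methyladenosine (m1A) in tRNAs, and LysM-Cre is a recombinase inserted into the lysozyme gene Lyz2 that deletes floxed genes in myeloid cells. Only the KO mice carried Cre, so the loss of Trmt61a and the presence of Cre cannot be told apart. The labels give no age or sex of the mice and no stimulus of the cells. Nor do they say that libraries of 1 genotype are separate mice or cultures, and p-values therefore reflect a spread between libraries that may be technical.

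Innate sensing starts at receptors that bind microbial molecules or displaced nucleic acids. Toll-like receptors and the interleukin-1 receptor recruit MyD88, which assembles IRAK4 and IRAK1 and hands the signal to TRAF6 and then to the IKK kinases that free NF-kB. TLR3 and internalised TLR4 use TRIF, the product of Ticam1, cytosolic RNA sensors use MAVS on the outer mitochondrial membrane, and the DNA sensor cGAS acts through STING. These routes meet at TBK1 and IKKε (Ikbke), which phosphorylate IRF3 and IRF7 and so start the transcription of type I interferon. IRAK3, also called IRAK-M and found mainly in monocytes and macrophages, restrains the MyD88 route, and TREX1 degrades cytosolic DNA before cGAS can bind it.

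The promoters of the genes were read for the binding motifs of the factors at the end of these routes, because the series is about interferon associated genes. The 2 motifs given here are among several that were looked at in these same windows, and the others are not reported. RefSeq sequences (GRCm38.p6) gave 13 windows of 300 bases for the 10 genes, from 250 bases before to 50 after a transcription start. The core of the interferon-stimulated response element was written GAAA, any 2 bases, GAAA, on either strand. It was found in 1 of the 13 windows, that of Myd88, and in 3.44% of all 32851 promoter windows. The NF-kB consensus, also on either strand, was found in 3 of the 13 windows and in 8.46% of all windows. The 3 were the windows of Irak1, which overlap each other and hold the same match, and 1 of the windows of Trex1. The matches thus belong to 2 of the 10 genes. No match of one motif overlapped a match of the other. A match describes letters in a window and is no evidence of binding. The window of Myd88 and 1 of those of Irak1 are shown with their matches in capitals. Of the 2 windows of Irak3, which held no match, 1 is shown because Irak3 had the smallest p-value of the 10 genes. The Myd88 match starts 40 bases and the Irak1 match 18 bases upstream of the RefSeq transcription start of the window shown. The windows shown for Myd88 and Irak3 lie inside the gene spans given below, so their starts are not the outer ends of those spans.
Myd88, chr9:119339969-119340268, minus strand: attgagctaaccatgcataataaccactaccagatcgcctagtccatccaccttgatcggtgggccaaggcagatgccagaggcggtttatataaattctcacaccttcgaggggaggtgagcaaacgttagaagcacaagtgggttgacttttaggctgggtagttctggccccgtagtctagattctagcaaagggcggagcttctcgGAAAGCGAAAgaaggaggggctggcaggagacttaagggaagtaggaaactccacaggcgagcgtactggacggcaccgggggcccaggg
Irak1, chrX:74023872-74024171, minus strand: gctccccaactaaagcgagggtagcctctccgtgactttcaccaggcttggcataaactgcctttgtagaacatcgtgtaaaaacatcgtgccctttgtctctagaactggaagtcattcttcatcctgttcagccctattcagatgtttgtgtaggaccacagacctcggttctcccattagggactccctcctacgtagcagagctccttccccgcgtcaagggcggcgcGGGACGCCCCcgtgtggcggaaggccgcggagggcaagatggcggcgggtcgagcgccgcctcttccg
Irak3, chr10:120201548-120201847, minus strand: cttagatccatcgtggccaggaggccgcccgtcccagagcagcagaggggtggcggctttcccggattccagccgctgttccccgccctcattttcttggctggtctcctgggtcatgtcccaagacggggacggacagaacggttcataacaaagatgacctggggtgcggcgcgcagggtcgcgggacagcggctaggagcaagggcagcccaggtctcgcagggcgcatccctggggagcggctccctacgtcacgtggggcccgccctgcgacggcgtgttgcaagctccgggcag

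The libraries held between 37899665 and 40710502 gene counts in KO and between 37021855 and 41033179 in WT. Between 1357 and 15679 counts stood behind each value of the 10 genes. The targeted gene Trmt61a was at 0.530, 0.755 and 0.539 counts-per-million (CPM) in KO and at 4.96, 3.89 and 5.06 CPM in WT. Over all genes, 4 of 12605 passed the edgeR quasi-likelihood test at a Benjamini-Hochberg adjusted p under 0.05 (0.0317% of tested genes), namely Lyz1, Cd163, Trmt61a and Lyz2. DESeq2 called 17 genes, and in edgeR Lyz2 lost its call without KO 2 (adjusted p = 0.147) or without WT 1 (adjusted p = 0.0671). The macrophage markers Adgre1, Csf1r, Cd68, Itgam, Mertk, Fcgr1 and Cd14 were expressed and did not pass, and their summed level of 10260 to 11610 CPM in KO overlapped that of 10490 to 11220 CPM in WT. With Lyz2, the locus that carries Cre in KO, the sum of the 8 markers was 18740 to 22380 CPM in KO and 27750 to 32410 CPM in WT, and Lyz2 alone was at 8488 to 10770 CPM in KO and 17040 to 21190 CPM in WT. The called gene Cd163, a macrophage receptor gene that is not among the 8, averaged 8.70 CPM in KO and 27.4 CPM in WT. Summed markers of neutrophils were at 1328 to 2123 CPM in KO and 1356 to 2448 CPM in WT, and those of T, B and NK cells at 0.822 to 2.37 CPM in KO and 0.653 to 3.80 CPM in WT. Dendritic cell markers summed to 3.10 to 3.67 CPM in KO and 3.34 to 3.87 CPM in WT, and erythroid markers to 0.133 to 1.199 CPM in KO and 0.101 to 1.14 CPM in WT.

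None of the 10 sensing genes passed in edgeR, DESeq2 or limma voom. At an unadjusted p under 0.05, edgeR gave 1 of the 10, Irak3, against 3.1% of all tested genes. The genotypes did not overlap for Irak3 and Mavs, where 8.65% of tested genes had no overlap in either direction. Both were lower in KO, and 4.59% of tested genes had every KO library below every WT library. The median log2 fold change of the 10 genes was -0.03, with values from -0.18 to 0.04, and the median of all tested genes was 8.37e-05. The 95% intervals of all 10 genes stayed inside 1.5-fold up or down, and those of 9 genes inside 1.2-fold, where 72.4% and 39.6% of all tested genes did. Of the 5086 tested genes averaging 35 CPM or more, 98.0% lay inside 1.5-fold and 80.4% inside 1.2-fold. The 35 CPM and 1.2-fold limits were set after the values were seen, and the interval of Trex1, which starts at -0.26, stayed only just inside 1.2-fold. In these bulk libraries fewer expressing cells and less RNA per cell cannot be told apart.

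**Figure D1:**
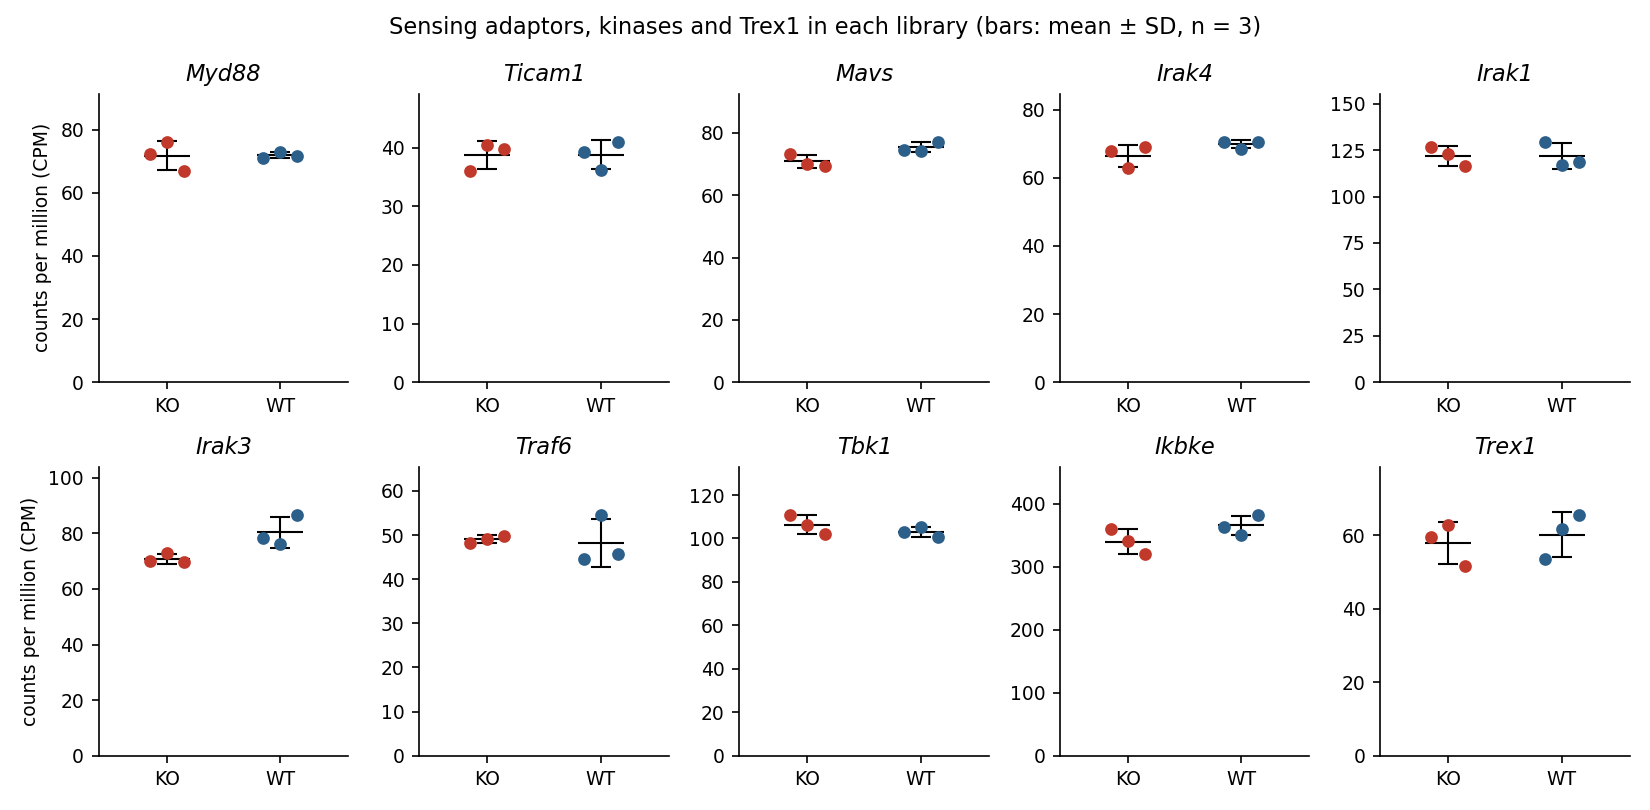
CPM of each of the 10 genes in the 3 KO libraries (red) and the 3 WT libraries (blue), with the mean and SD as black bars and axes that start at 0. Irak3 and Mavs are the genes whose KO points all lie below their WT points, and in the other 8 panels the genotypes overlap.

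**Figure D2:**
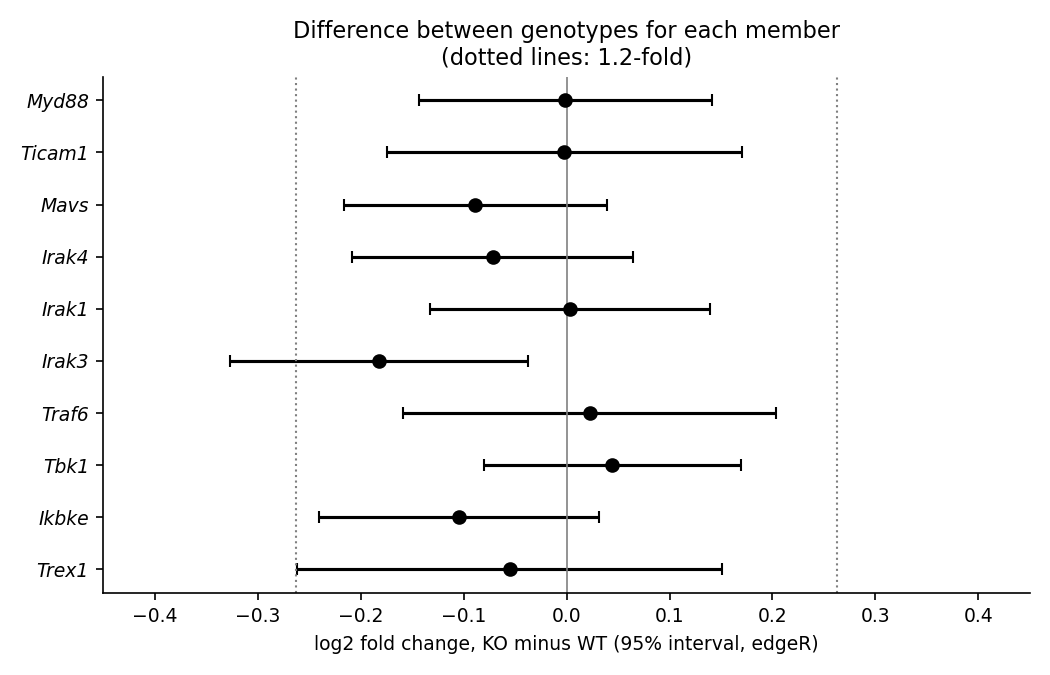
Log2 fold change, KO minus WT, of each gene with its 95% interval from the edgeR fit, and dotted lines at 1.2-fold. The interval of Irak3 runs from -0.33 to -0.04 and is the only one of the 10 that leaves out 0 and that reaches past 1.2-fold. That of Trex1 ends close to the lower dotted line, and the 1.2-fold limit was set after the values were seen.

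Myd88 (Entrez Gene 17874, chromosome 9, 119335934 to 119341411, mm10), the adaptor of most Toll-like receptors and of the interleukin-1 receptor, was at 72.2, 76.3 and 67.1 CPM in KO and at 71.1, 73.0 and 71.6 CPM in WT. The WT values lay inside the range of the KO values. KO libraries averaged 71.9 ± 4.60 CPM and WT libraries 71.9 ± 0.985 CPM (SD, n = 3), and the log2 fold change of -0.0011 had a standard error of 0.06 (edgeR adjusted p = 0.999949). Its 95% interval ran from -0.14 to 0.14. Ticam1 (Entrez Gene 106759, chromosome 17, 56269319 to 56276786), the TRIF adaptor, was at 36.0, 40.4 and 39.8 CPM in KO and at 39.2, 36.2 and 41.0 CPM in WT. The 2 genotypes covered nearly the same range, with a log2 fold change of -0.0023 and an interval from -0.17 to 0.17. The sign of both differences turned with the low-count filter or with the library left out.

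The remaining adaptors of that family gave no call either. Ticam2, the bridging adaptor between TLR4 and TRIF, was at 85.4, 82.5 and 81.2 CPM in KO and at 85.9, 85.8 and 85.0 CPM in WT, a log2 fold change of -0.04. Tirap, the bridging adaptor of the MyD88 route, had 0.09, and 0.02 without KO 1. Sarm1, a TIR-domain enzyme that cleaves NAD, was low, with 13 to 18 counts in KO and 12 to 19 counts in WT.

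Mavs (Entrez Gene 228607, chromosome 2, 131234063 to 131248025), the mitochondrial adaptor of the RNA sensors, was at 73.1, 69.9 and 69.5 CPM in KO and at 74.6, 74.2 and 77.2 CPM in WT. Every KO library lay below every WT library, with KO 1 and WT 2 the closest pair. KO libraries averaged 70.8 ± 1.96 CPM and WT libraries 75.3 ± 1.62 CPM (SD, n = 3), so KO stood at 94.0% of WT. The log2 fold change of -0.09 had a standard error of 0.06 and an interval from -0.22 to 0.04, and it did not pass (edgeR adjusted p = 0.999949). All 15 alternatives kept the negative sign, with values from -0.12 to -0.07. The RNA sensor genes upstream of it did not pass. Of these, Dhx58 (LGP2) was at 28.0, 28.9 and 26.9 CPM in KO and at 23.9, 24.1 and 27.1 CPM in WT, a log2 fold change of 0.16 with an interval from -0.02 to 0.34.

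Irak4 (Entrez Gene 266632, chromosome 15, 94543643 to 94581815), the first kinase of the MyD88 complex, was at 67.8, 62.9 and 69.0 CPM in KO and at 70.7, 68.6 and 70.7 CPM in WT. Only KO 3 overlapped the WT range, at its lower end, and the log2 fold change of -0.07 had an interval from -0.21 to 0.06. Without KO 2, the lowest library, it was -0.03. Irak1 (Entrez Gene 16179, chromosome X, 74013914 to 74023918), the kinase that IRAK4 phosphorylates, was at 127, 123 and 116 CPM in KO and at 129.6, 117 and 119 CPM in WT. The genotypes overlapped over most of their ranges, with a log2 fold change of 0.0034 and an interval from -0.13 to 0.14. Irak2, a further IRAK of the same complex, was at 72.7, 68.1 and 70.5 CPM in KO and at 68.8, 69.1 and 74.7 CPM in WT, with -0.0091.

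Irak3 (Entrez Gene 73914, chromosome 10, 120141648 to 120202130), the inhibitory member of the family, had the smallest p-value of the 10 genes. Lyz2, the locus that carries Cre in KO, lies on the same chromosome, at 117277331 to 117282321, as does Tbk1. Any part of that shared location in the values of Irak3 and Tbk1 was not tested. It was at 69.9, 72.8 and 69.8 CPM in KO and at 78.3, 76.3 and 86.6 CPM in WT. All KO values lay below all WT values, the KO libraries lay close together, and WT 3 was the highest of the 6. KO libraries averaged 70.9 ± 1.69 CPM and WT libraries 80.4 ± 5.46 CPM (SD, n = 3), so KO stood at 88.1% of WT. The log2 fold change of -0.18 had a standard error of 0.07 and an interval from -0.33 to -0.04. Its unadjusted p in edgeR was 0.0180, the 121st smallest of 12605 genes, and it did not pass after adjustment (adjusted p = 0.999949). Over 15 alternatives the log2 fold change ran from -0.22 to -0.12 and the unadjusted p from 0.0113 to 0.0954. The p was under 0.05 in 13 of them and above it without KO 3 or without WT 3, and the adjusted p ran from 0.911 to 0.999965.

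Traf6 (Entrez Gene 22034, chromosome 2, 101678429 to 101701669), the ubiquitin ligase that joins the MyD88 complex to the kinase TAK1, was at 48.1, 49.2 and 49.9 CPM in KO and at 44.6, 54.5 and 45.8 CPM in WT. The KO values lay between the lowest and the highest WT value. The log2 fold change was 0.02 with an interval from -0.16 to 0.20, and its sign turned without WT 1 or without WT 3. The 5 other TRAF genes in the table did not pass. Traf3, which links MAVS and TRIF to TBK1, was at 36.0, 42.9 and 42.7 CPM in KO and at 42.1, 41.9 and 48.0 CPM in WT, a log2 fold change of -0.12. That value was -0.04 without KO 1, the lowest library, and -0.05 without WT 3, the highest. Traf2, an adaptor of tumour necrosis factor receptors, had 0.0063, Traf1 had 0.03 and Traf5 -0.04. Traf4 had 14, 102 and 45 counts in KO and 33, 21 and 54 counts in WT. KO 2 was the highest library, and the log2 fold change of 0.56 was -0.30 without it.

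Tbk1 (Entrez Gene 56480, chromosome 10, 121546455 to 121586787) and Ikbke (Entrez Gene 56489, chromosome 1, 131254343 to 131279606) encode the related kinases that phosphorylate IRF3. Tbk1 was at 111, 106 and 102 CPM in KO and at 103, 105 and 101 CPM in WT. The genotypes overlapped, with KO 1 the highest library, a log2 fold change of 0.04, 0.01 without KO 1, and an interval from -0.08 to 0.17. Ikbke was at 359, 340.3 and 320.1 CPM in KO and at 363.5, 351 and 382 CPM in WT. KO 2 and KO 3 lay below all WT libraries and KO 1 within the WT range. KO libraries averaged 339.9 ± 19.5 CPM and WT libraries 365 ± 15.6 CPM (SD, n = 3), and the log2 fold change of -0.10 had an interval from -0.24 to 0.03 (edgeR adjusted p = 0.999949). Without KO 3 the log2 fold change of Ikbke was -0.06 and without KO 1 and WT 2 together it was -0.17.

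The canonical IKK genes, whose products phosphorylate the NF-kB inhibitor IκB, lay on both sides of 0. Ikbkb was at 111, 109 and 106 CPM in KO and at 118, 119.8 and 116 CPM in WT. Its KO and WT values did not overlap, and its log2 fold change of -0.11 with an interval from -0.23 to 0.0038 did not pass. Chuk, which encodes IKKα, had -0.06, and Ikbkg, which encodes the scaffold NEMO, had 0.11.

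Trex1 (Entrez Gene 22040, chromosome 9, 109057933 to 109059734) was at 59.5, 62.7 and 51.5 CPM in KO and at 53.4, 61.7 and 65.5 CPM in WT. It had the widest spread over the 6 libraries among the 10 genes, 0.34 on the log2 scale, and that spread was shared by both genotypes. KO libraries averaged 57.9 ± 5.77 CPM and WT libraries 60.2 ± 6.16 CPM (SD, n = 3), and its log2 fold change was -0.06 with an interval from -0.26 to 0.15. The sign turned without KO 3 or without WT 3. The 3 genes whose pattern over the 6 libraries was most like that of Trex1 were Zfp810, 2610008E11Rik and Ddx28, whose root mean square differences from it were 0.03, 0.04 and 0.04 in centred log2 CPM. The counting of Trex1 depends on the annotation used. In GENCODE M21 all of its 1147 exon bases also belong to Atrip on the same strand, and the annotation release behind the counts is not known here. Atrip, which encodes a partner of the DNA damage kinase ATR, was at 8.83, 9.39 and 8.47 CPM in KO and at 7.67, 8.69 and 9.25 CPM in WT.

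Overlaps with other genes were smaller for the rest. Exons of Acaa1a on the opposite strand cover 11.3% of the exon bases of Myd88, those of Twf1 7.87% of Irak4 and those of Tmbim4 5.22% of Irak3. Reads in these stretches could belong to either gene, since the strand setting is not known. Tmbim4 was at 38.2, 36.1 and 35.1 CPM in KO and at 39.0, 31.4 and 38.7 CPM in WT, with overlapping genotypes.

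Levels of different genes were compared per kilobase of annotated exon. The lengths are those of GENCODE M21, which may not be the annotation used for counting. Trex1 was the highest of the 10 with 50.5 ± 5.03 CPM per kilobase in KO and 52.5 ± 5.37 in WT (SD, n = 3). Ikbke followed with 37.7 ± 2.17 in KO and 40.5 ± 1.73 in WT, and its range over the 6 libraries did not meet that of Trex1 above or Myd88 below. Myd88, Tbk1 and Irak1 stood next at 27.9, 26.8 and 25.8 CPM per kilobase as means of 6 libraries, and neighbours among these 3 overlapped. Mavs at 21.9 and Irak3 at 20.6 overlapped too, as did Irak4 at 13.6 and Ticam1 at 13.0. Traf6 was the lowest at 6.18, with no overlap with Ticam1. The order depends on the length used, because the 9018 annotated exon bases of Ikbke and the 7883 of Traf6 include much that is not coding. Per kilobase of coding sequence, Ikbke was the highest at 163.9, Myd88 followed at 76.0 and Trex1 at 62.7, and Ticam1 was the lowest at 17.7.

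**Figure D3:**
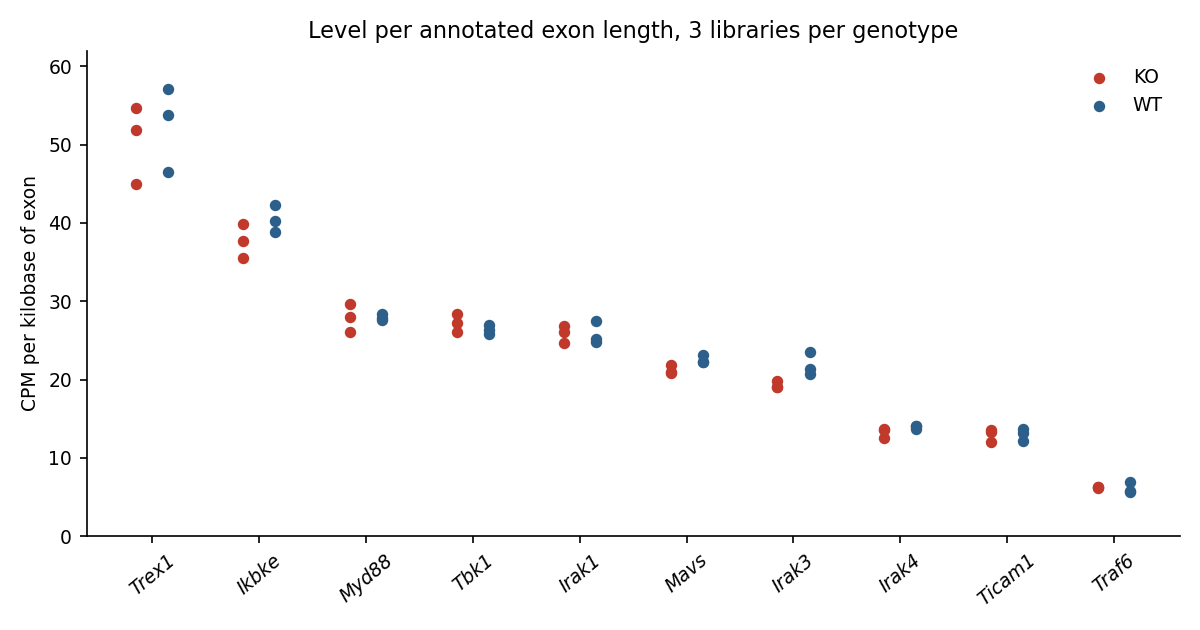
CPM per kilobase of annotated exon for each gene, sorted by the mean of 6 libraries, with KO libraries in red and WT libraries in blue. The order runs from Trex1 at 51.5 to Traf6 at 6.18, and Trex1, Ikbke and Traf6 stand apart from their neighbours while Myd88, Tbk1 and Irak1 lie together.

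Ratios within a library compare related molecules without any scaling between libraries. The ratio of Ikbke to Tbk1 per kilobase was 1.41, 1.39 and 1.36 in KO and 1.53, 1.44 and 1.64 in WT. All KO ratios lay below all WT ratios, and the difference was -0.15 on the log2 scale. A two-sided exact permutation test gave p = 0.1, below which 3 against 3 libraries cannot go, and 0.4 after Benjamini-Hochberg adjustment over the 4 ratios compared. The log2 difference was -0.10 without WT 3 and -0.19 without WT 2. The ratio of Irak3 to Irak4 was 1.41, 1.58 and 1.38 in KO and 1.51, 1.52 and 1.67 in WT. KO 2 lay within the WT range, and the log2 difference of -0.11 had an exact permutation p = 0.3 (adjusted 0.4). It was -0.17 without KO 2 and -0.06 without WT 3. The ratio of Irak1 to Irak4 averaged 1.96 ± 0.146 in KO and 1.85 ± 0.0887 in WT, with exact permutation p = 0.3 (adjusted 0.4; n = 3 each). The ratio of Ticam1 to Myd88 averaged 0.466 ± 0.0419 in KO and 0.465 ± 0.0344 in WT, with exact permutation p = 1.0 before and after adjustment (n = 3 each).

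**Figure D4:**
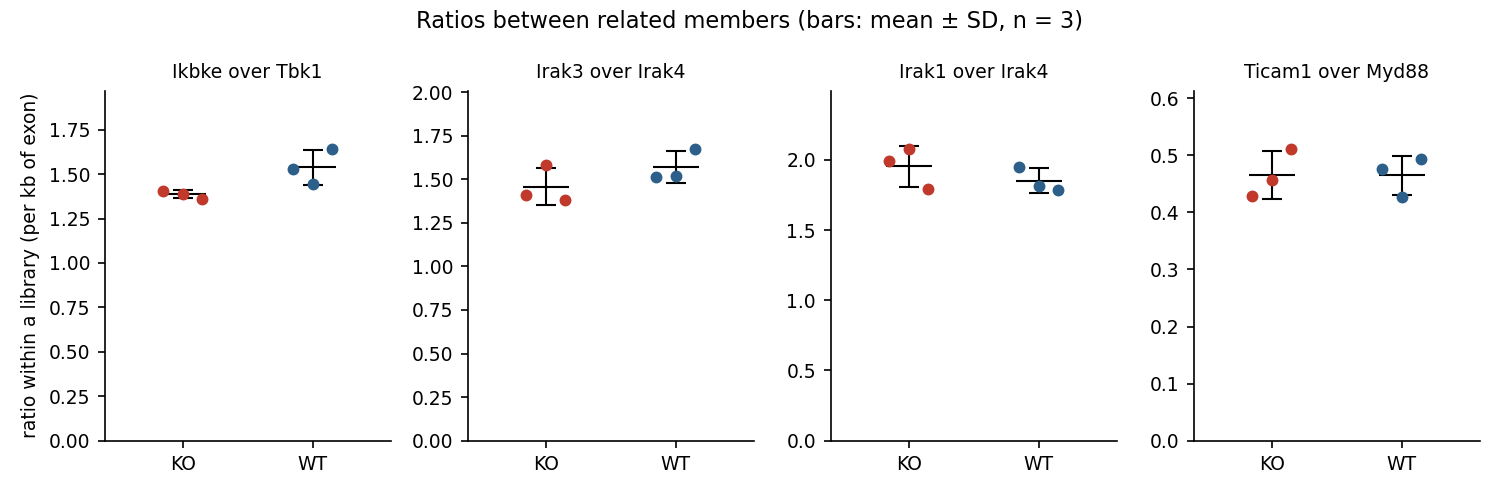
Ratio of 2 genes in the same library, per kilobase of exon, for KO (red, left) and WT (blue, right), with the mean and SD as black bars and axes that start at 0. The ratio of Ikbke to Tbk1 is the only one of the 4 without overlap, 1.36 to 1.41 in KO and 1.44 to 1.64 in WT.

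The values also differed between libraries of a genotype. KO 3 held the lowest value of 6 of the 10 genes and WT 3 the highest value of 6. The median deviation of the 10 genes from their 6-library means was -0.07 in KO 3 and 0.07 in WT 3 on the log2 scale. For all tested genes it was 0.0041 and 0.0051, but scaling between libraries keeps that median near 0, so it is no background. The share of all tested genes lowest or highest in these libraries was not counted. Summed markers of cycling cells were 206, 286 and 359 CPM in KO and 260.2, 209 and 355 CPM in WT, so they were high in KO 3 and in WT 3 alike. Summed neutrophil markers were 1328, 2084 and 2123 CPM in KO and 1715, 1356 and 2448 CPM in WT, also highest in KO 3 and in WT 3, while the 7 macrophage markers without Lyz2 summed to 11610, 10640 and 10260 CPM in KO and 10490, 11220 and 10720 CPM in WT. Summed markers of mast cells, basophils and eosinophils were 24.0, 48.2 and 51.5 CPM in KO and 30.6, 25.0 and 59.1 CPM in WT, highest in WT 3 and in KO 3 within their genotypes. Stromal markers were 104, 235 and 200.1 CPM in KO and 155, 101 and 159.7 CPM in WT. The part of these cells in the values of KO 3 and WT 3 was not tested.

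The wider pathway held 127 further listed genes, of which 121 were tested. None passed in edgeR, DESeq2 or limma voom. At an unadjusted p under 0.05 edgeR gave 5 of them, all lower in KO, against 3.1% of all tested genes in either direction and 1.64% lower in KO. KO and WT did not overlap for 12, also all lower in KO, against 4.59% of tested genes below and 4.05% above. Log2 fold changes were below 0 for 80 of the 121, with a median of -0.04, where 6297 of the 12605 tested genes were below 0. The lists were chosen with earlier results of these data known. Among 23 receptors and sensors the median was -0.02, with 14 below 0. Tlr3, the receptor for double-stranded RNA, was at 11.3, 12.0 and 11.5 CPM in KO and at 11.4, 14.9 and 15.2 CPM in WT, a log2 fold change of -0.25 with an interval from -0.54 to 0.04. Zbp1, a sensor of left-handed nucleic acid, had -0.15, and -0.08 without KO 3.

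The scaffolds and ubiquitin enzymes that act beside Traf6 and Tbk1 had a median of -0.03, with 11 of 17 below 0. Ube2n, the conjugating enzyme with which TRAF6 builds ubiquitin chains, was at 50.8, 59.3 and 62.6 CPM in KO and at 67.0, 63.9 and 65.1 CPM in WT. Its values did not overlap, and the log2 fold change was -0.18 with an interval from -0.36 to -0.0064 (edgeR adjusted p = 0.999949). Without KO 1, its lowest library, it was -0.10. Ube2v1, the partner of Ube2n, had -0.08, and -0.05 without KO 1 or without WT 1, and Sharpin, a subunit of the linear ubiquitin ligase, had -0.14 with no overlap. Inhibitors were split, with 12 above and 14 below 0 among 26 and a median of -0.0046. Tnip1, a ubiquitin-binding partner of the NF-kB inhibitor A20, had -0.18, Socs3, a feedback inhibitor of cytokine signalling, -0.33, and Otulin, which removes linear ubiquitin, -0.16. The genotypes overlapped for all 3 genes, and the value of Socs3 was -0.16 without WT 2 and that of Otulin -0.06 without WT 1 and -0.25 without WT 3.

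Transcription factors at the end of the routes had a median of -0.08, with 9 of 11 below 0. Rela, the main activating subunit of NF-kB, was at 141, 146 and 128 CPM in KO and at 165, 146 and 148 CPM in WT, a log2 fold change of -0.14 with an interval from -0.30 to 0.0094. It was -0.09 without KO 3 and -0.08 without WT 1. Nfkb2 and Relb, which form the non-canonical NF-kB dimer, both had -0.13, and the values of Nfkb2 did not overlap. Relb was at -0.06 without KO 3 and at -0.07 without WT 2. Of 18 listed NF-kB target genes 15 were tested, of which 13 lay below 0 with a median of -0.14, and in 6 of the 15 every KO library lay below every WT library, against the 4.59% of all tested genes given above. Ccl3, a chemokine, was at 48.4, 46.2 and 43.9 CPM in KO and at 48.8, 53.9 and 54.6 CPM in WT, a log2 fold change of -0.19 with an interval from -0.34 to -0.03. Bcl3, a nuclear partner of NF-kB, had -0.20, and -0.12 without KO 3, and Il1b, a cytokine at 2.82 to 3.13 CPM in KO and 3.39 to 4.55 CPM in WT, had -0.44. These 3 had no overlap and did not pass (edgeR adjusted p = 0.999949 each). Interferon target genes had a median of -0.07, with 12 of 17 tested below 0. Irf9, a subunit of the factor that binds the interferon-stimulated response element, was at 52.1, 52.9 and 47.8 CPM in KO and at 59.7, 58.9 and 54.7 CPM in WT, a log2 fold change of -0.18 with no overlap. Bst2, an antiviral membrane protein gene, had 0.14, and Ccl5, a chemokine gene, had 0.41 with an interval from -0.21 to 1.03. With single libraries left out, Bst2 ran from 0.06 without WT 2 to 0.23 without WT 3 and Ccl5 from 0.22 to 0.76 with the same libraries left out.

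**Figure D5:**
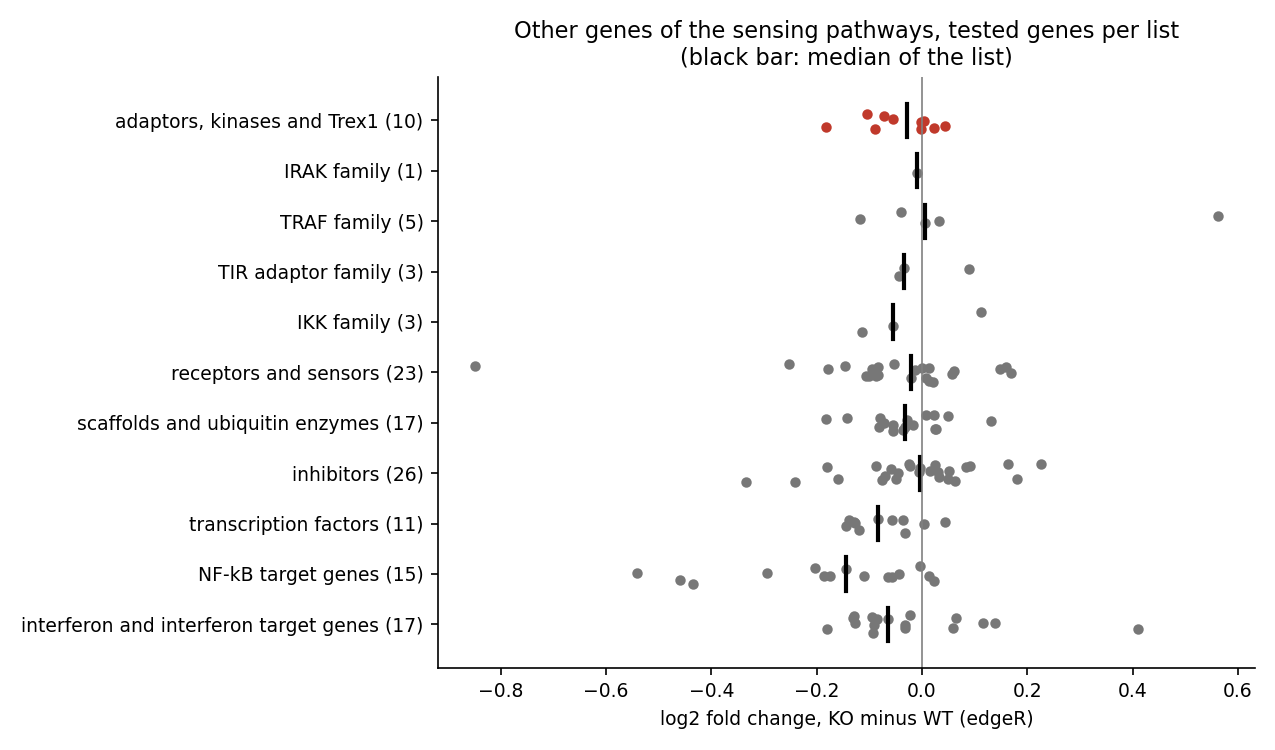
Log2 fold change, KO minus WT, of every tested gene in each list, with the number of tested genes in brackets, the 10 sensing genes in red and the median of each list as a black bar. Medians run from -0.14 for NF-kB target genes to 0.0063 for the TRAF family.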

How the data were processed

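Bulk RNA was measured in 6 libraries of BMDMs, 3 KO and 3 WT, grouped by the genotype and number in the sample titles. TRIzol extraction of total RNA and a VAHTS Universal V6 library kit are named, per the labels' protocols. The authors deposited raw read counts per gene. Reads went through fastp, HISAT2 and HTSeq with build mm10, per the submitters' processing notes. Tool versions, strand setting and annotation release are not given in the sources here. No pair of libraries of a genotype agreed within sampling noise, with chi-square values between 11.4 and 34.2 per degree of freedom.

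Differences were tested with edgeR 4.0.16 (R 4.3.3) after filterByExpr at a minimum count of 10 and TMM scaling, by robust legacy-mode quasi-likelihood fits adjusted by Benjamini-Hochberg over 12605 genes. Its common biological coefficient of variation was 0.122. Standard errors were taken from the log2 fold change and its F value, and intervals are at 95%. Alternatives were other factors and filters, DESeq2 1.42.0, limma voom 3.58.1, no robust estimation, a replicate block and libraries left out. A count of 3 corresponds to 0.0730 to 0.0813 CPM. Coordinates, lengths and overlaps come from GENCODE M21 (GRCm38, the assembly of mm10), with exon and coding lengths merged over all transcripts. The genes and lists were chosen with earlier results of these data known. The 35 CPM and 1.2-fold limits were set after values were seen, and the 2 motifs are those given of several looked at in the windows. Beside the 10 genes, those named are their family members, the 3 smallest p-values of each list, the genes called, overlapping genes and the genes nearest in pattern to the gene with the widest spread.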

Additional observations from a re-analysis of the deposited data

How the results depend on the processing

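The number of genes called, 4 in the results above, ran from 3 to 5 with a single library left out, was 17 in DESeq2 and 8 with the replicate block, and was between 4 and 6 under the other alternatives. None of the 10 sensing genes and none of the wider pathway passed under any of the 15 alternatives. Lyz2 lost its call without KO 2 (log2 fold change -0.97, edgeR adjusted p = 0.147) and without WT 1 (-1.01, 0.0671).

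Signs turned for Traf4, whose log2 fold change was 0.56, and for genes nearer to 0. With single libraries left out, the ranges were -0.13 to 0.023 for Trex1, -0.054 to 0.048 for Ticam1, -0.045 to 0.047 for Myd88, -0.028 to 0.051 for Irak1, -0.032 to 0.12 for Traf6, -0.032 to 0.032 for Irak2, -0.059 to 0.165 for Traf1, -0.030 to 0.028 for Traf2, -0.30 to 1.004 for Traf4, -0.22 to 0.079 for Traf5, -0.22 to 0.12 for Sarm1 and -0.13 to 0.0028 for Chuk. With no low-count filter Ticam1 had 0.0011 and Myd88 0.0023, with a minimum count of 50 Myd88 had 0.00057, in DESeq2 Myd88 had 0.00024, and with upper-quartile factors Irak1 had -0.0024. Without KO 1 and WT 2 together Myd88 had 0.0059, Irak1 -0.054, Traf1 -0.038, Traf2 -0.016 and Tirap -0.028. The cause was not tested. With single libraries left out, the log2 difference in the ratio of Ticam1 to Myd88 ran from -0.069 to 0.058, of Irak3 to Irak4 from -0.17 to -0.060 and of Irak1 to Irak4 from 0.031 to 0.14. That of Ikbke to Tbk1 ran from -0.19 to -0.10. The log2 fold change of Ikbkg ran from 0.073 to 0.18.

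Per kilobase of coding sequence in place of exon, mean levels were 163.9 CPM for Ikbke, 76.0 for Myd88, 62.7 for Trex1, 49.8 for Irak1, 49.1 for Irak4, 47.9 for Tbk1, 45.7 for Mavs, 41.4 for Irak3, 30.6 for Traf6 and 17.7 for Ticam1, which follows from the shorter length.

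The deviations of same-numbered libraries correlated at 0.03, -0.13 and 0.25. The highest correlation was that of KO 1 with WT 2, at 0.30, and that of KO 3 with WT 3 came next. The labels do not say whether the numbers pair the libraries, and correlations over 3 libraries per genotype cannot decide it. The replicate block raised the calls to 8 and left the log2 fold change of Irak3 at -0.18. Pairing the ratios by number leaves their mean differences unchanged by arithmetic, and its exact sign-flip tests cannot go below 0.25. Precision is limited by 3 libraries per genotype, with at least 1357 counts behind each value of the 10 genes, and by the 13 to 18 counts of Sarm1 in KO.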
